A study of Mus musculus with 24 samples.

Results

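A pulldown with a photocrosslinkable microRNA mimic was examined for 10 mRNAs that encode elongation factors, initiation factors, the cytoplasmic poly(A)-binding protein and 2 further proteins of the same mRNA class. They were chosen by symbol, as Eef1a1, Eef1b2, Eef1g, Eef2, Pabpc1, Tpt1, Eif3f, Eif3h, Eif4b and Gnb2l1. Earlier results of these data were known at that choice, so shares of the 10 set against all genes are descriptive. All 10 were present among the 13534 genes of the whole-cell table and among the 11568 genes of the fraction table, and all 10 were among the 12915 genes tested. The cells were NIH3T3, a line of mouse embryonic fibroblasts, and every group was transfected with a mimic carrying 3-cyanovinylcarbazole (CNVK), a nucleoside that crosslinks to the opposite strand under light. No untransfected group was analysed here.

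The whole-cell groups were the miR-29b pulldown, the scrambled pulldown, the miR-29b input and the scrambled input, with 4 libraries each. The pulldown groups hold RNA recovered with the miR-29b mimic or with the scrambled mimic, and the input groups hold the RNA before recovery from cells given the same mimics. Both mimics were used at 10 nM, medium was added at 24 h, and cells were harvested 8 h later. Fractionated cells gave 8 more libraries: the cytoplasm and the nucleus of each of those 4 groups were sequenced once. The labels do not state whether libraries of a group were separate cultures, so p-values reflect the spread of these samples, which may be technical.

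TOP mRNAs begin with a terminal oligopyrimidine tract, an unbroken run of C and U at the cap, and include those of ribosomal proteins and of many translation factors. Their translation is controlled through the mTOR pathway and the RNA-binding protein LARP1, so that cells adjust the production of the translation machinery to nutrients. A microRNA binds an mRNA mainly through its seed, the bases near its 5′ end, which pair with matching sites in the mRNA.

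The mature miR-29b that the mimic imitates is shown because recovery through a site would rest on its seed, bases 2 to 8, in capitals. It is encoded at chr1:195037091-195037113 on the plus strand and at chr6:31063025-31063047 on the minus strand (RefSeq, GRCm38.p6).
mmu-miR-29b-3p: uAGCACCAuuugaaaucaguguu
None of the 10 mRNAs carried a predicted site in the authors' deposited table, where 509 of 13534 genes (3.76%) were marked with any site. The same table called none of the 10 a hit in all lysed replicates, against 5.05% of all genes, and none in the intact replicate, against 7.23%.

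Start sites from RefSeq (GRCm38.p6) were matched for 7 of the 10, with Gnb2l1 found under its current symbol Rack1. Windows of 4 genes are shown: 3 hold a long tract, and that of Eif4b is given because this mRNA alone rose in the miR-29b pulldown over its input. Each window runs from 15 bases before to 15 bases after the annotated start on the strand of the gene, and its longest run of C and T is in capitals. They lie at chr11:48800345-48800374 (plus strand, Gnb2l1), chr7:108934400-108934429 (plus, Eif3f), chr9:78481710-78481739 (minus, Eef1a1) and chr15:102073758-102073787 (plus, Eif4b).
Gnb2l1: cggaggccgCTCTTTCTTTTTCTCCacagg
Eif3f: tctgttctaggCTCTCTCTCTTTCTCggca
Eef1a1: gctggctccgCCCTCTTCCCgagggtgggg
Eif4b: ggTCTTCCCgtcggacgccgcgccaccccc
The longest run was 16 bases in Gnb2l1, 15 in Eif3f, 10 in Eef1a1 and 7 in Eif4b. A run of at least 8 C or T was held by 3 of the 7 windows, against 3943 of all 32851 windows and 28 of 73 windows of ribosomal protein genes (38.4%). On the opposite strand, the run was in 0 of the 7 and in 13.2% of all windows. The windows of Eef1b2, Tpt1 and Eef2 held runs of 4, 4 and 2 bases. These letters describe annotated starts and do not show where transcription began in these cells.

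Whole-cell libraries held 7409157 to 55153996 listed counts and fraction libraries 5320421 to 20142591. Of 11 fibroblast markers, 10 were tested, with Lum not among them, and their summed level was 8830 to 14850 CPM in the miR-29b pulldown, 4081 to 4869 CPM in the scrambled pulldown, 4502 to 7402 CPM in the miR-29b input and 4529 to 5493 CPM in the scrambled input. CPM here are counts relative to library size, scaled by TMM (edgeR's trimmed mean factors). Sums after pulldown also depend on which mRNAs each mimic recovered, so the input sums are the ones that describe the cells. Col1a1, a fibrillar collagen and reported miR-29 target, averaged 4875 CPM after recovery with miR-29b, against 377 CPM after recovery with the scrambled mimic. Whether such targets raised the fibroblast sum with miR-29b was not tested. Of the markers of endothelial cells 0 of 3 were tested, of epithelium 2 of 5 with a sum of at most 3.95 CPM, and of leukocytes 1 of 4 with at most 4.07 CPM. Muscle had 2 of 4 tested with at most 5.59 CPM, and neural cells 1 of 3 with at most 21.1 CPM. Adipocyte markers, 3 of 3, summed to 109 to 497 CPM over all whole-cell libraries, and their part in the results was not tested.

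The libraries of a group were not equally independent. In the miR-29b pulldown, counts of replicate 3 lay close to a mixture of replicates 1 and 2 (chi-square per degree of freedom 2.82, against 66.0 and 87.9 for each alone). For 9 of the 10 mRNAs the level in that library was intermediate between those of replicates 1 and 2, and in the other groups for 8 or 9. Replicate 4, called intact in the authors' headers where the others are called lysed, stood apart in both inputs and in the miR-29b pulldown. Results are therefore also given from replicates 1 to 3, and from 10 libraries, a set without any replicate 3 and without replicate 4 of 2 groups, the scrambled pulldown and the miR-29b input. In that set the intact replicate 4 remained only in the miR-29b pulldown and the scrambled input. Values and calls that moved there cannot be told apart from a difference between the intact and lysed procedures.

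Recovery with miR-29b was compared first with the miR-29b input. Most of these mRNAs were depleted: 8 of the 10 fell, Eif4b rose and Eef1g did not pass (edgeR quasi-likelihood test, adjusted p under 0.05). Over all genes tested 51.6% were called, 28.4% higher and 23.2% lower. The libraries of pulldown and input did not overlap for 8 of the 10, of which 7 were lower and 1 higher, against 18.0% and 24.3% of all genes. The median log2 change of the 10 was −1.08, beside −0.03 for all genes tested. Together the 10 mRNAs took 0.613% to 0.696% of the listed counts in the miR-29b pulldown and 1.16% to 1.25% in the miR-29b input.

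Pabpc1 (chromosome 15, 36595658 to 36609581, GRCm38.p6), whose protein coats poly(A) tails and bridges them to the cap-binding complex, fell most of the 10. It had 484.6, 469.2, 485.3 and 525.1 CPM in the miR-29b pulldown, against 1477, 1734, 1557 and 3366 CPM in the miR-29b input (replicates 1 to 4). The pulldown libraries were nearly level and all lay below every input library, of which replicate 4 was the highest. The log2 change was −2.05 ± 0.30 (SE, n = 4 per group; edgeR adjusted p = 4.08e-05), a 4.14-fold lower level.

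Among the elongation factors, Eef1a1, which brings aminoacyl-tRNA to the ribosome, had 3201, 1989, 2587 and 2354 CPM in the miR-29b pulldown, against 4964, 4541, 4794 and 5142 CPM in the miR-29b input. The groups did not overlap, and the log2 change was −0.94 ± 0.17 (edgeR adjusted p = 0.000225). Eef1b2, the nucleotide exchange factor of eEF1A, had a log2 change of −1.21 ± 0.23 (edgeR adjusted p = 0.000439). Eef1g, the scaffold subunit of the exchange complex, had 340.2, 406.1, 371.2 and 142.0 CPM in the miR-29b pulldown, against 392.8, 387.8, 387.4 and 420.6 CPM in the miR-29b input. Its replicate 4 was far below the other pulldown libraries and the groups overlapped (log2 change −0.33 ± 0.24, edgeR adjusted p = 0.253). The change was −0.090 without that library, the weakest of the 16 fits that left out 1, and with upper-quartile factors Eef1g passed as lower (−0.61, adjusted p = 0.0371).

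Eef2, the GTPase of translocation, had 740.4, 851.4, 785.6 and 296.4 CPM in the miR-29b pulldown, against 1294, 1222, 1282 and 814.5 CPM in the miR-29b input. Replicate 4 was the lowest library of both groups, and the groups overlapped because of it. The log2 change was −0.79 ± 0.27 (edgeR adjusted p = 0.0217), and the call was lost when replicate 1 or 3 was left out of the miR-29b input (highest adjusted p = 0.0564). It was also lost with only the groups compared (adjusted p = 0.0620) and with the authors' library totals, where the change was −0.51 (adjusted p = 0.203).

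Both subunits of eIF3, the complex that prepares the small ribosomal subunit for an mRNA, fell without overlap. Eif3f had a log2 change of −1.63 ± 0.23 (edgeR adjusted p = 3.13e-05) and Eif3h of −1.31 ± 0.14 (3.19e-06). Tpt1, which encodes the translationally controlled tumour protein, fell by 1.64 ± 0.19 (4.60e-06). The table lists 3 Tpt1 pseudogenes with 3.31% to 8.02% of the count of Tpt1, so that reads could have been split between near-identical copies. Gnb2l1, whose product RACK1 sits on the small ribosomal subunit, fell by 0.76 ± 0.21 (edgeR adjusted p = 0.00553), also without overlap.

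Eif4b (chromosome 15, 102073773 to 102097173, GRCm38.p6), a factor that stimulates the helicase eIF4A during initiation, rose. It had 260.4, 383.4, 310.7 and 283.2 CPM in the miR-29b pulldown, against 158.7, 153.8, 145.9 and 211.6 CPM in the miR-29b input. Every pulldown library lay above every input library. The log2 change was 0.89 ± 0.17 (edgeR adjusted p = 0.000417), a 1.85-fold higher level. With replicates 1 to 3 alone the counts were again 1 higher and 8 lower, where 65.0% of all genes were called. With the 10 libraries 5 of the mRNAs were called lower and Eif4b higher, against 34.9% of all genes called, and the calls of Eef1b2 (adjusted p = 0.0512), Eef2 (0.0800) and Gnb2l1 (0.171) were lost.

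**Figure D1:**
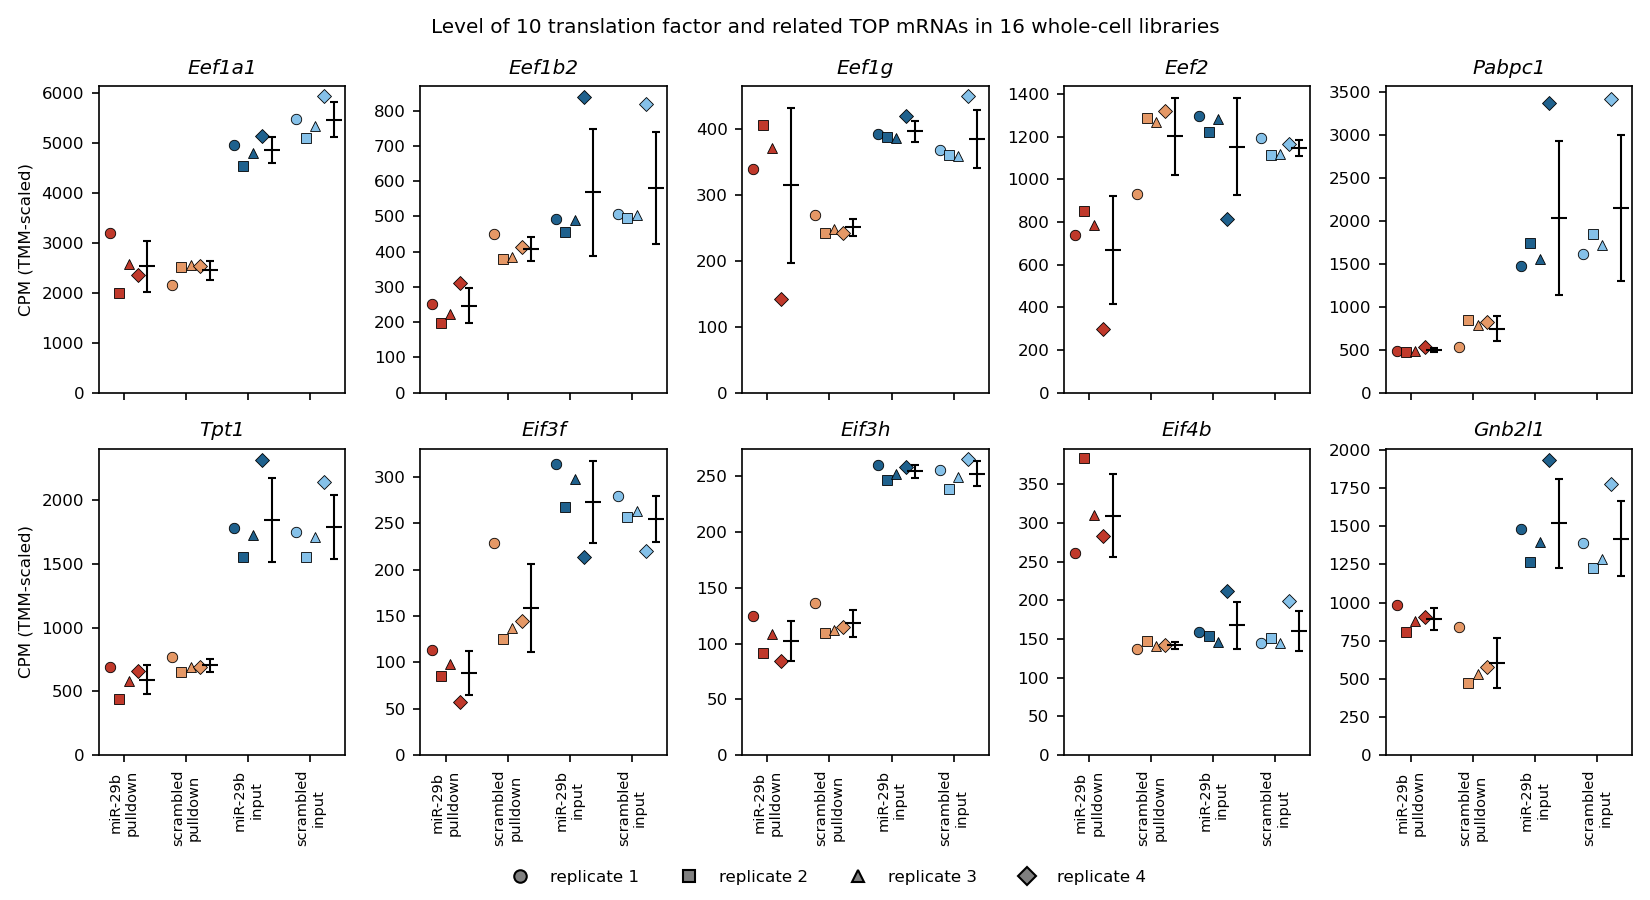
Level of each of the 10 mRNAs in the 16 whole-cell libraries, in TMM-scaled CPM on linear axes that start at 0. Symbols are replicates and bars are the mean ± SD of 4 libraries. Pabpc1 lay at 469.2 to 525.1 CPM in the miR-29b pulldown, below all inputs, while Eif4b lay at 260.4 to 383.4 CPM, above the other 3 groups.

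The scrambled pulldown gives the background of the recovery. Here 6 of the 10 fell and 0 rose, against 35.9% of all genes called, 18.5% higher and 17.4% lower. Libraries did not overlap for 7 of the 10, all of them lower, where 19.6% of all genes were lower and 21.3% higher without overlap. The median log2 change of the 10 was −0.89, beside 0.03 for all genes. DESeq2 called 7 of the 10 lower, 0 higher, and 39.8% of all genes. By unadjusted p under 0.05, 8 of the 10 differed, against 45.0% of all genes.

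Pabpc1 again had the lowest change of the 10. It had 524.9, 842.4, 790.3 and 821.2 CPM in the scrambled pulldown, against 1615, 1840, 1712 and 3417 CPM in the scrambled input, with no overlap. The log2 change was −1.53 ± 0.30 (edgeR adjusted p = 0.00100). Tpt1 fell by 1.35 ± 0.19 on the log2 scale (7.07e-05), Gnb2l1 by 1.23 ± 0.21 (0.000337), Eef1a1 by 1.16 ± 0.17 (0.000101) and Eif3h by 1.10 ± 0.14 (4.53e-05).

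Eif3f had 229.1, 125.2, 137.3 and 144.4 CPM in the scrambled pulldown, against 279.8, 256.4, 262.9 and 220.0 CPM in the scrambled input. Replicate 1 of the pulldown was high enough to overlap the inputs. Its log2 change of −0.68 ± 0.23 passed (edgeR adjusted p = 0.0281), but the call was lost without replicate 1 of the scrambled input or without replicate 2, 3 or 4 of the scrambled pulldown (highest adjusted p = 0.0882), and with upper-quartile factors (0.0531).

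The other 4 did not pass. Eef2 had 930.5, 1286, 1268 and 1320 CPM in the scrambled pulldown, against 1195, 1113, 1119 and 1164 CPM in the scrambled input (log2 change 0.07 ± 0.27, edgeR adjusted p = 0.871). Replicates 2 to 4 of its pulldown were above every input and replicate 1 was below them all. Eif4b had 136.9, 147.8, 140.4 and 142.4 CPM in the scrambled pulldown, against 144.4, 151.8, 145.0 and 199.2 CPM in the scrambled input, and the groups overlapped (−0.17 ± 0.17, adjusted p = 0.447). Eef1g (−0.62, adjusted p = 0.0540) and Eef1b2 (−0.51, adjusted p = 0.0947) lay below their inputs in all 4 libraries. Both passed without replicate 4 of the miR-29b input, whose spread enters the shared fit, and Eef1g also without replicate 2 or 4 of the miR-29b pulldown. With replicates 1 to 3 alone both passed, and 8 of the 10 were lower, against 54.1% of all genes called. With the 10 libraries 4 of the 10 were called lower, against 8.82% of all genes called, and Gnb2l1 (adjusted p = 0.0562) and Eif3f (0.388) were lost.

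**Figure D2:**
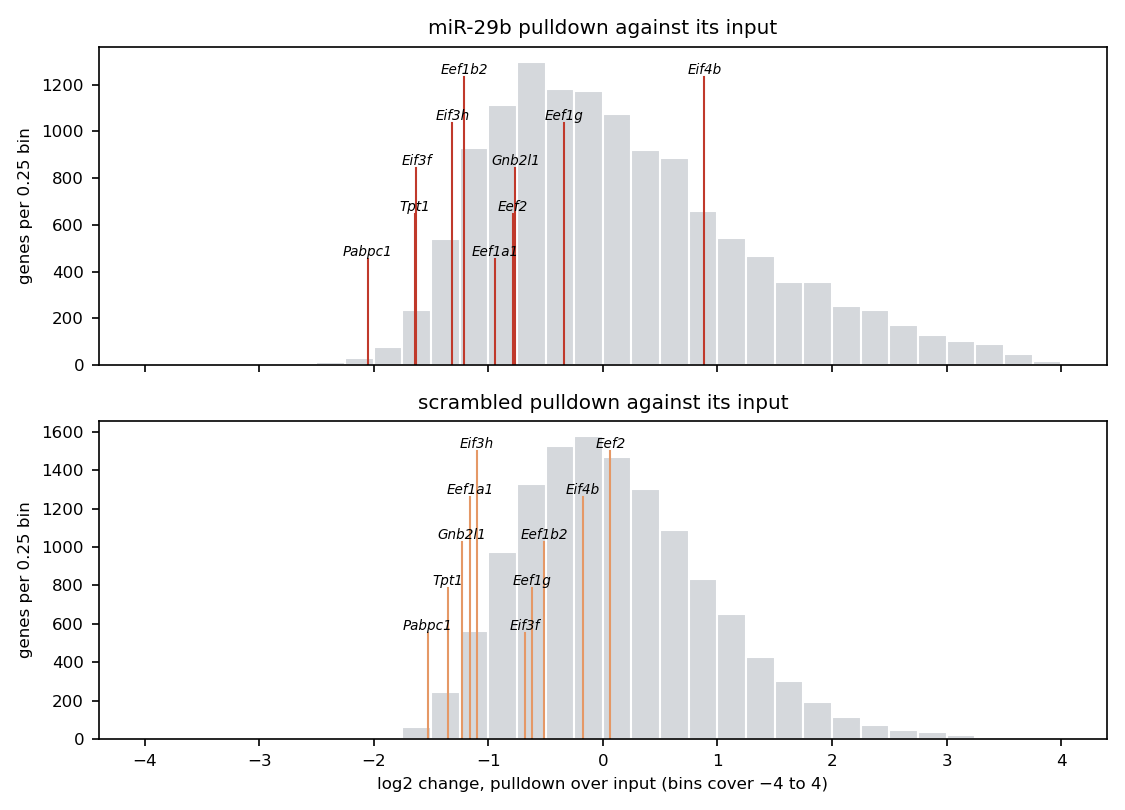
Distribution of log2 changes of the genes tested in bins of 0.25 from −4 to 4 (grey), for the miR-29b pulldown (top) and the scrambled pulldown (bottom) against their inputs. Vertical lines mark the 10 mRNAs, and their heights only separate the names. With each mimic 9 of the 10 lie below 0, with Eif4b at 0.89 as the exception with miR-29b and Eef2 at 0.07 as the exception with the scrambled mimic.

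The median of the 10 lay below 0 at each replicate number. Replicate 3 of the miR-29b pulldown, close to a mixture of replicates 1 and 2, is not a separate recurrence. The median log2 difference of the 10 between pulldown and input of the same number was −0.89, −1.20, −1.02 and −1.51 with miR-29b and −0.586, −1.03, −0.998 and −1.10 with the scrambled mimic (replicates 1 to 4). These same-numbered differences describe the libraries and assume no pairing. Some members went the other way. With miR-29b, Eif4b was above 0 in replicates 1 to 4 (0.71, 1.32, 1.09 and 0.42) and Eef1g in replicate 2 (0.067). With the scrambled mimic, Eef2 was above 0 in replicates 2 to 4 (0.21, 0.18 and 0.18).

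The inputs address whether the mimic changed the levels of these mRNAs before recovery. Of the 10, 0 were called, 0 had an unadjusted p under 0.05, and DESeq2 also called 0. Over all genes 7 were called (0.0542%), 604 had an unadjusted p under 0.05, and DESeq2 called 46. Levels are shares of a library, and between cultures fewer cells holding an mRNA and less of it per cell cannot be told apart. Log2 changes of the 10, miR-29b input over scrambled input, lay between −0.17 for Eef1a1 and 0.10. Replicate 4 was the highest library of both inputs for Eef1a1, Eef1b2, Eef1g, Pabpc1, Tpt1, Eif4b and Gnb2l1.

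The pulldowns were then compared directly. Of the 10, Eif4b and Gnb2l1 were higher in the miR-29b pulldown and Eef2, Eif3f and Eef1b2 lower, while 5 did not pass, against 45.4% of all genes called, 24.5% higher and 20.9% lower. The share of the 10 called was near that background and is no result about them as a set. Libraries did not overlap for 4 of the 10, with Eif4b higher and Eef2, Eif3f and Eef1b2 lower, against 22.8% and 21.1% of all genes. Eif4b had 260.4 to 383.4 CPM in the miR-29b pulldown, against 136.9 to 147.8 CPM in the scrambled pulldown, without overlap. Its log2 change was 1.13 ± 0.17 (edgeR adjusted p = 6.02e-05), a 2.18-fold higher level, and it remained called when any of the 16 libraries was left out.

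Eef2 had a log2 change of −0.85 ± 0.27 (edgeR adjusted p = 0.0167), and Eif3f of −0.84 ± 0.23 (0.00647). In both, every miR-29b library lay below every scrambled one. For Eef2 the highest miR-29b library had 851.4 CPM and the lowest scrambled one 930.5 CPM. For Eif3f these were 113.2 CPM with miR-29b and 125.2 CPM with the scrambled mimic. Eef1b2 had 252.4, 197.2, 221.6 and 312.2 CPM in the miR-29b pulldown, against 451.5, 380.3, 384.8 and 413.7 CPM in the scrambled pulldown. Its groups did not overlap either (log2 change −0.73 ± 0.23, edgeR adjusted p = 0.0169), but the call was lost without replicate 2 of the miR-29b pulldown or replicate 1 of the scrambled pulldown (highest adjusted p = 0.0665).

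Gnb2l1 had 981.9, 807.3, 881.9 and 908.5 CPM in the miR-29b pulldown, against 843.0, 474.4, 532.8 and 574.7 CPM in the scrambled pulldown. Replicate 1 of the scrambled pulldown overlapped the miR-29b libraries. The log2 change was 0.56 ± 0.20 (edgeR adjusted p = 0.0346), and the call was lost in 5 of the 16 fits that left out 1 library: without replicate 1 or 3 of the miR-29b pulldown and without replicate 2, 3 or 4 of the scrambled pulldown (highest adjusted p = 0.103). It was also lost with only the groups compared (adjusted p = 0.0756). Eef1g passed as higher without replicate 4 of the miR-29b pulldown (log2 change 0.57, adjusted p = 0.00227), against 0.33 (0.279) with all libraries. Pabpc1 did not pass with all libraries (−0.60, adjusted p = 0.105), nor in any fit that left out 1. It passed with replicates 1 to 3 (−0.58, adjusted p = 0.00658), with only the groups compared (−0.62, 0.0267) and with the replicate number as a block (−0.58, 0.0291). The remaining 3, Tpt1, Eif3h and Eef1a1, at −0.25 to 0.05, did not pass.

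The split of calls depended on scaling. With the authors' library totals 2 were higher and 0 lower, and with upper-quartile factors 1 was higher and 6 lower, Pabpc1, Tpt1 and Eif3h among them. The first scaling put the median of all genes at 0.23 and the second at −0.40, against −0.10 with TMM. The choice of libraries also moved the calls. With replicates 1 to 3 alone 3 were higher and 4 lower, with Eef1g and Pabpc1 added, against 58.9% of all genes called. With the 10 libraries Eif4b was higher and Eif3f lower, against 23.3% of all genes called, while Eef2 (−0.82, adjusted p = 0.170), Eef1b2 (−0.70, 0.136) and Gnb2l1 (0.46, 0.342) did not pass. Eif4b was called higher under each of these scalings and subsets.

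The comparison implied by the design sets recovery with miR-29b against recovery with the scrambled mimic, each over its own input. Of the 10, Eif4b was more enriched with miR-29b and Eif3f less, against 26.2% of all genes called, 17.0% higher and 9.21% lower. The median log2 difference of the 10 was −0.25, beside −0.10 for all genes. The reported miR-29 targets Col1a1, Col3a1 and Mcl1, 2 fibrillar collagens and an anti-apoptotic protein, had 2.74, 2.50 and 4.19 in the same fit. They were named as reported targets that the pulldown recovered, so their values are no independent measure of recovery.

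Eif4b was 2.08-fold more enriched with miR-29b than with the scrambled mimic (log2 difference 1.06 ± 0.24 SE, edgeR adjusted p = 0.00375). It passed in each of the 16 fits that left out 1 library (adjusted p 0.000602 to 0.0143). With the 10 libraries the difference was as large, at 1.20, but did not pass (adjusted p = 0.0792). In the authors' deposited table its PE, a score whose formula was not recovered, was 1.44, 2.07, 1.51 and 1.17 in replicates 1 to 4. Those values stood at the 83.0th, 85.7th, 85.1th and 76.9th percentile of all listed genes.

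Eif3f, at −0.95 ± 0.32 (edgeR adjusted p = 0.0393), was less enriched with miR-29b. The call was lost in 12 of the 16 fits that left out 1 library. These left out any replicate of the scrambled input, replicate 1, 2 or 3 of the miR-29b input, replicate 2, 3 or 4 of the miR-29b pulldown, or replicate 1 or 4 of the scrambled pulldown. Adjusted p then reached 0.0850, and it was 0.134 with the 10 libraries and 0.216 with the authors' totals. Eef2 (−0.85, adjusted p = 0.110) and Eef1b2 (−0.70, adjusted p = 0.131) lay on the same side and did not pass. Over the fits that left out 1 library Eef1b2 ranged from −0.90 to −0.37 (adjusted p 0.0481 to 0.374), passing only without replicate 4 of the scrambled input, and with the 10 libraries it was −0.34.

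Gnb2l1 (0.46, adjusted p = 0.264), Eef1g (0.28, adjusted p = 0.584) and Eef1a1 (0.22, adjusted p = 0.538) lay above 0. Eef1g passed without replicate 4 of the miR-29b pulldown (log2 difference 0.53, adjusted p = 0.0381). Pabpc1, at −0.52, had a leave-one-out range of −0.83 to −0.084 and did not pass (edgeR adjusted p = 0.385). Tpt1 (−0.29) and Eif3h (−0.22) did not pass either. With replicates 1 to 3 alone 5 of the 10 passed, Eif4b and Eef1g higher and Eef1b2, Eef2 and Eif3f lower, near the 43.5% of all genes called there. With upper-quartile factors 1 was higher and 3 lower, and with the authors' totals Eif4b and Gnb2l1 were higher (Gnb2l1 0.84, adjusted p = 0.0150) and 0 lower.

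**Figure D3:**
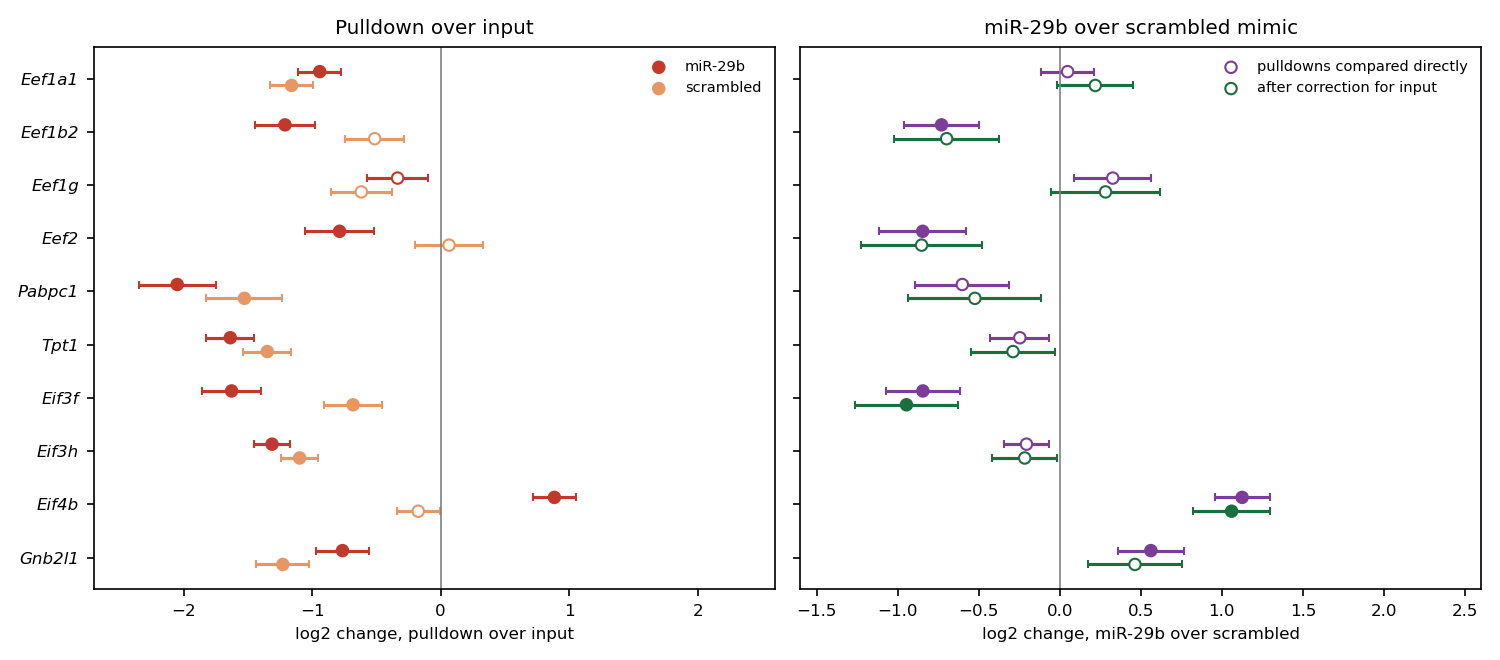
Fitted log2 changes ± SE of the 10 mRNAs from the model of 16 libraries. Left, pulldown over input with miR-29b and with the scrambled mimic; right, miR-29b over scrambled, with the pulldowns compared directly and after correction for input. Filled symbols passed an adjusted p of 0.05. Eif4b stands apart on the right at 1.13 and 1.06, and Eif3f is the other filled symbol after correction, at −0.95.

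The levels of each mRNA can be ordered over the 4 groups. Eif4b was highest in the miR-29b pulldown (309 ± 53.4 CPM; SD, n = 4), while the miR-29b input (168 ± 29.9 CPM), the scrambled input (160 ± 26.3 CPM) and the scrambled pulldown (142 ± 4.54 CPM) overlapped as neighbours. For Pabpc1 the inputs overlapped at the top, and the scrambled pulldown (745 ± 148 CPM) and the miR-29b pulldown (491 ± 23.9 CPM) overlapped only through replicate 1 of the scrambled pulldown. For Eef2 the scrambled pulldown and both inputs had means of 1147 to 1201 CPM and overlapped, and the miR-29b pulldown, lowest at 669 ± 252 CPM, overlapped the miR-29b input. Eif3h had 102 ± 18.0 and 118 ± 12.2 CPM in the miR-29b and scrambled pulldowns, which overlapped, and 254 ± 5.92 and 252 ± 11.3 CPM in the miR-29b and scrambled inputs, which also overlapped.

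The similarity of the profiles was described by Pearson's r with the mean log2 profile of the 10 over the 16 libraries. Each of the 10 is part of that mean, which raises its r, while genes outside the 10 are not. These libraries share groups, scaling and, in part, material, so r has no p here. Eif3h (0.984), Tpt1 (0.971), Eef1a1 (0.952) and Pabpc1 (0.942) followed the mean most closely, then Eif3f, Gnb2l1, Eef1b2 and Eef1g at 0.717 to 0.866. Eef2 had 0.499 and Eif4b −0.425. Outside the 10, the most similar profiles were those of a gene whose symbol the table spells as a date, Mar-02 (0.992), and of Tex261 (0.986), Ppap2c, Txn2 and Prelid1 (0.985 each).

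The other genes of the machinery were counted in the same fit, in lists drawn up by role. The lists were not tested as sets, and the genes named are among the most changed of each. Of 12 other elongation and release factors tested, 3 were more and 1 less enriched with miR-29b than with the scrambled mimic. Of all genes 17.0% were more and 9.21% less enriched. Eif5a, which relieves stalled ribosomes, had a log2 difference of 1.99, and Abce1, which splits ribosomes for recycling, 2.62. Pelo, which binds stalled ribosomes, was at −1.18. Against the miR-29b input 3 of these 12 rose and 2 fell, where 28.4% of all genes rose and 23.2% fell.

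Of 12 other eIF3 subunits, 1 was more and 4 less enriched with miR-29b, against 17.0% and 9.21% of all genes. Eif3i was at 0.84, Eif3g at −2.17 and Eif3d at −1.08. Against the miR-29b input 2 of the 12 rose, among them Eif3a (0.83), and 6 fell, among them Eif3g (−1.17). Of all genes 28.4% rose and 23.2% fell. The whole list's median there was −0.53.

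Of 28 other initiation factors, 5 were more and 2 less enriched with miR-29b, against 17.0% and 9.21% of all genes. Eif4h, whose product like eIF4B stimulates eIF4A, had a log2 difference of 3.97 ± 0.50 (edgeR adjusted p = 3.98e-05), or 15.6-fold. Its mean level was 3503 CPM with miR-29b and 134 CPM with the scrambled mimic in the pulldowns, against 319 and 191 CPM in the miR-29b and scrambled inputs. Eif2b1, a subunit of the exchange factor of eIF2, followed at 2.58. The scaffolds Eif4g1 (−1.11) and Eif4g3 (−0.84), which bind PABPC1, were less enriched.

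Of 11 other poly(A)-binding proteins and partners, 3 were more and 1 less enriched with miR-29b, against 17.0% and 9.21% of all genes. Pan2, a subunit of a deadenylase, had 2.65 and Larp4b 2.16. Against the miR-29b input Pabpc4, a paralogue of Pabpc1, fell by 1.56 and Paip1, a partner of PABPC1, by 1.15 on the log2 scale. There 4 of the 11 rose and 2 fell, against 28.4% and 23.2% of all genes.

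Of 15 regulators of TOP mRNAs, 4 were more and 3 less enriched with miR-29b, against 17.0% and 9.21% of all genes. Ssb, the La protein (2.63), and Rps6kb2, an S6 kinase (1.65), were higher, and Mtor (−1.46) and Tsc2 (−1.18), kinase and inhibitor of the pathway, were lower. Of 5 other TOP mRNAs tested 0 passed in this comparison by edgeR, against 26.2% of all genes. An unadjusted p under 0.05 was held by 1 of the 5, against 37.0% of all genes. Against the miR-29b input only Fau, which encodes a ubiquitin-like fusion of a ribosomal protein, fell (−0.71, edgeR adjusted p = 0.0304). There 23.2% of all genes fell.

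The fraction libraries were used to rank these mRNAs among all genes by their cytoplasmic over nuclear ratio. Each library stood alone, so no test was possible, and a 2-fold ratio was used to count. In both inputs 8 of the 10 were at least 2-fold higher in the cytoplasmic than in the nuclear library, against 22.2% of all genes. Their median log2 ratio was 2.07 with miR-29b and 1.96 with the scrambled mimic, beside −0.01 for all genes with either. The nuclear RNAs Malat1 and Neat1 stood at −7.58 and −6.68 in the miR-29b input and at −7.00 and −6.37 in the scrambled input. Listed counts made up 37.4% and 43.4% of the authors' library totals in the nuclear miR-29b and scrambled inputs. In the cytoplasmic miR-29b and scrambled inputs they made up 78.9% and 78.7%. Scaling to those totals was not tried, so the ratios rank genes against each other, and the 2-fold counts depend on the scaling. Counts of the 10 in a fraction library ran from 321 to 89576, and the intervals below cover counting error only.

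Tpt1 was the most cytoplasmic of the 10, at log2 ratios of 3.75 and 3.68 in the miR-29b and scrambled inputs. Eef1b2 (2.39 and 2.28), Eif3h (2.22 and 2.34), Eif3f (2.29 and 1.99), Eef1a1 (2.10 and 2.15), Gnb2l1 (2.04 and 1.94), Eef1g (1.81 and 1.60) and Pabpc1 (1.68 and 1.46) followed. Eef2 (1.00 and 0.83) and Eif4b (0.46 and 0.35) were the least cytoplasmic. With library totals in place of TMM Eif4b turned to −0.25 and −0.22, and Pabpc1 fell below 2-fold (0.97 and 0.89), so that 7 of the 10 were past it, and the direction of Eif4b is not settled.

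Recovery in the cytoplasmic fraction differed from that in whole cells for some members. Corrected for input, 2 of the 10 were at least 2-fold lower with miR-29b than with the scrambled mimic, Eef2 (log2 −1.77) and Eif3f (−1.70), and 0 were 2-fold higher, against 16.5% and 19.3% of all genes. Eef2 had 203.9 CPM of listed counts, without TMM scaling (Wilson 95% interval 196.3 to 211.8) in the cytoplasmic miR-29b pulldown, against 878 (853 to 904) in the cytoplasmic scrambled pulldown. Eif3f had 60.9 (56.8 to 65.3) in the cytoplasmic miR-29b pulldown, against 223 (211 to 236) in the cytoplasmic scrambled pulldown. Between the whole-cell pulldowns both were also called lower with miR-29b. Corrected for input, whole-cell Eef2 did not pass (−0.85, edgeR adjusted p = 0.110). Eif3f passed there but lost its call in 12 of the 16 fits that left out 1 library. The 2 of 10 lower in the cytoplasm is near the share of all genes and is no result about the 10 as a set.

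Scaled by listed counts or by TMM, Eif4b did not show its whole-cell enrichment in the cytoplasmic fraction. It had 95.5 CPM of listed counts (Wilson 95% interval 90.3 to 101) in the cytoplasmic miR-29b pulldown, against 142 (133 to 153) in the cytoplasmic scrambled pulldown, and the log2 difference after correction for input was −0.32. In the nuclear fraction it had 208 (197 to 219) in the miR-29b pulldown, against 141 (131 to 150) in the scrambled pulldown, with 0.70 after correction. The authors' deposited table gave it a cytoplasmic PE of −0.557. Listed counts made up 78.4% of the authors' library total in the cytoplasmic miR-29b pulldown and 48.7% in the cytoplasmic scrambled pulldown. Scaling to those totals was not tried for the fractions. It would shift the cytoplasmic difference between miR-29b and the scrambled mimic alike for every gene. The direction of Eif4b in the cytoplasm, the 2-fold counts of that difference and the signs of small values are therefore not settled.

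Pabpc1 stood at −0.80 in the cytoplasmic fraction after correction for input, Tpt1 at 0.87, Eef1b2 at 0.67, Eef1a1 at 0.42, Gnb2l1 at 0.28, Eef1g at −0.21 and Eif3h at 0.04. Eif3h turned to −0.14 with upper-quartile factors and to −0.088 with listed totals, and Gnb2l1 was 0.088 and 0.14 under the same settings. In the nuclear fraction 0 of the 10 passed 2-fold, against 1.83% of all genes higher and 2.31% lower, and all but Eif4b and Eef1a1 (0.46) lay between −0.17 and 0.27. Against the cytoplasmic miR-29b input, Pabpc1 (−1.38) and Eef2 (−1.24) were at least 2-fold lower in the pulldown and Eef1b2 (1.01) at least 2-fold higher, against 9.41% and 13.7% of all genes. The 2-fold count of Eef1b2 was lost with upper-quartile factors (0.92) and with listed totals (0.59), where Eif3f was past 2-fold lower (−1.24).

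**Figure D4:**
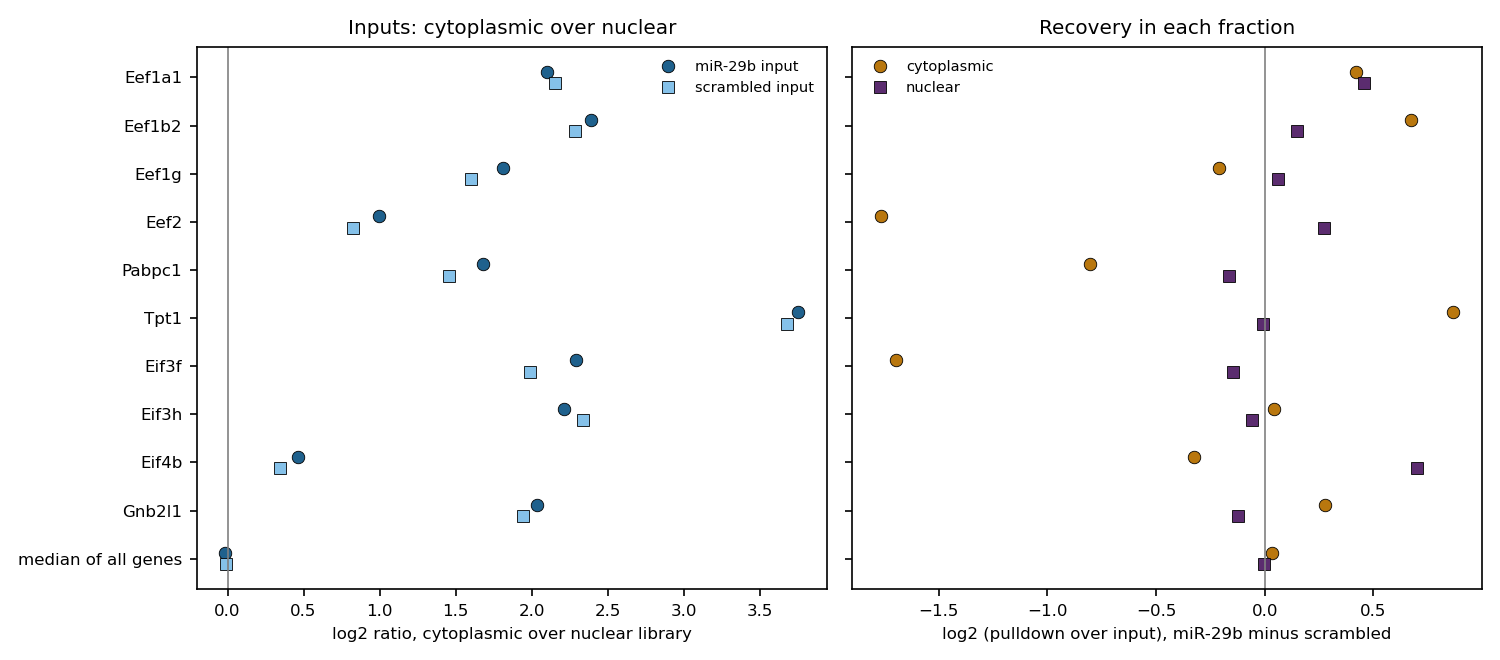
Log2 ratios of the 10 mRNAs in the 8 fraction libraries, 1 library each, with no error bars for that reason. Left, cytoplasmic over nuclear level in the miR-29b and scrambled inputs; right, pulldown over input with miR-29b minus the same with the scrambled mimic, in the cytoplasmic and nuclear fractions. Tpt1 lies farthest right in the inputs, at 3.75 and 3.68, and Eef2 and Eif3f lie lowest in the cytoplasmic recovery, at −1.77 and −1.70.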

How the data were processed

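RNA of 16 whole-cell and 8 fraction libraries was sequenced, from 5 ng of RNA each (6 ng for 1 library) with random hexamer and oligo-dT primers, per the labels. STAR 2.3.0 and mm10 are named in the submitters' processing notes; the sources used here name no counting tool, annotation or strand setting. Counts per gene are whole numbers in the tables the authors deposited. The authors also deposited CPM, whose library totals exceed the listed counts (48.9% to 87.3% of them in whole-cell libraries), and a score called PE in the file headers, of unrecovered formula. Both fractions came from 1 table, deposited under 2 names.

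After 518 repeat lines were dropped from the whole-cell table and 11 from the fraction table, 12915 of 13534 genes entered edgeR 4.0.16 (R 4.3.3; filterByExpr, TMM, quasi-likelihood test, two-sided, Benjamini-Hochberg over all genes tested, threshold 0.05), in 1 model of group means over 16 libraries with a common dispersion of 0.106. CPM of whole-cell libraries are recomputed with TMM, and those of fraction libraries, given with intervals, are relative to listed counts without TMM. Each SE is the size of the log2 change divided by the square root of the test's F statistic. It rests on the spread in the shared model of 16 libraries. Log2 levels used a prior count of 2, and fraction ratios a prior count of 5 over genes with at least 20 counts. Named genes were the members, and per list the 2 genes that changed most each way, past the threshold and with at least 5 CPM in the higher group, in the mimic-specific comparison and in the miR-29b pulldown against its input. Members and lists were chosen with earlier results of these data known. The pipeline was tested on simulated data. Alternatives were other scalings, the authors' totals, DESeq2 1.42.0, no filter, a replicate block, only the groups compared, subsets of replicates and leaving out each library. Same-numbered libraries correlated at 0.506 to 0.717 between inputs and 0.379 to 0.70 between the miR-29b pulldown and its input, but at −0.0687 to 0.365 where the scrambled pulldown took part, so pairs were not taken as established there. Intervals cover counting error only.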

Additional observations from a re-analysis of the deposited data

Results flagged for a closer look

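Outliers were sought in 40 groups of 4 libraries (10 mRNAs in 4 groups). In 11 of them the gap of a library to the nearest other exceeded Dixon's 95% critical value. A chance rate of about 1 in 20 groups would hold only for independent libraries of the same procedure. Here some libraries lay close to mixtures of others, replicate 4 was called intact, and the 10 mRNAs share the same libraries. The 11 groups therefore cannot be set against that rate, and they only mark libraries that stood apart. Replicate 4 of the miR-29b input was apart for Eef1b2 (838.2 CPM), Eef1g (420.6 CPM), Pabpc1 (3366 CPM) and Eef2 (814.5 CPM, the lowest). Replicate 4 of the scrambled input was apart for Eef1b2 (819.5 CPM), Eef1g (450.6 CPM), Pabpc1 (3417 CPM) and Eif4b (199.2 CPM). Replicate 1 of the scrambled pulldown, the library with the fewest listed counts, was apart for Eef1a1 (2165 CPM), Eef2 (930.5 CPM) and Pabpc1 (524.9 CPM), each time as the lowest.

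The response to the pulldown differed between mimics by the interaction test for Eif4b (log2 difference 1.06, edgeR adjusted p = 0.00375) and Eif3f (−0.95, edgeR adjusted p = 0.0393). The same test called 26.2% of all genes, so these calls are no result about the 10 as a set. Eif3f lost its call in 12 of the 16 fits that left out 1 library. With the 10 libraries neither passed (edgeR adjusted p = 0.0792 for Eif4b and 0.134 for Eif3f).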

How the results depend on the processing

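Between the pulldowns 5 of the 10 mRNAs were called, and 2 with the authors' library totals or with the 10 libraries. In the mimic-specific comparison 2 were called, 4 with upper-quartile factors, 5 with replicates 1 to 3 and 0 with the 10 libraries. Leaving out 1 library gave 4 to 6 calls between pulldowns, 0 to 0 between inputs, 1 to 2 in the mimic-specific comparison, 8 to 9 for the miR-29b pulldown and 5 to 8 for the scrambled pulldown against their inputs. The other settings stayed within 1.5 times the count. With the replicate block the counts, in the order just given, were 6, 0, 3, 9 and 7; Eef1b2 then passed in the mimic-specific comparison (adjusted p = 0.0224) and in the scrambled pulldown against its input (0.0265), and Pabpc1 between pulldowns (0.0291). In the fractions 8 were at least 2-fold higher in the cytoplasmic library of both inputs, and 7 with listed totals. Eif3h turned to −0.14 and −0.088 in the cytoplasmic mimic-specific ratio with upper-quartile factors and listed totals.

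Some log2 values near 0 changed sign. Between pulldowns, Eef1a1 turned to −0.24 with upper-quartile factors and to −0.080 without replicate 1 of the miR-29b pulldown (leave-one-out range −0.080 to 0.15), and Tpt1 and Eif3h to 0.082 and 0.13 with the authors' totals. In the mimic-specific comparison, Eef1a1 and Eef1g turned to −0.067 and −0.029 with upper-quartile factors, Tpt1 and Eif3h to 0.040 and 0.11 with the authors' totals, and Pabpc1 to 0.046 with the 10 libraries. Eef2 turned to −0.050 in the scrambled pulldown against its input with the 10 libraries. The median of all genes moves with the scaling (−0.39 and 0.21 against −0.10 in the mimic-specific comparison); other causes were not tested.

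Counts over all genes also moved: 5866 between pulldowns against 3041 with the 10 libraries; 3382 in the mimic-specific comparison against 5584 with replicates 1 to 3 and 1453 with the 10 libraries; 4638 in the scrambled pulldown against its input against 1151 with the 10 libraries; and 7 between inputs against 177 with replicates 1 to 3, 46 with DESeq2, 11 with the replicate block, 1 with the authors' totals, and 0 with only the groups compared or the 10 libraries. The 10 libraries hold fewer samples, and they keep the intact replicate 4 in the miR-29b pulldown and the scrambled input only.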
